A study of Mus musculus with 8 samples.

Results

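Arterial, venous and lymphatic endothelial cells are told apart by a small set of genes, and 10 of them were followed here through 8 libraries of sorted mouse yolk sac cells. The genes were chosen by name: Nr2f2, Ephb4, Efnb2, Aplnr, Apln, Prox1, Cxcr4, Cxcl12, Gja4 and Gja5. All 10 were found among the 24454 gene rows of the count table, and all 10 passed the filter on low counts. The cells came from E11.5 yolk sacs (E, embryonic day), and every embryo carried the same reporter, a green fluorescent protein (GFP) allele of the miR144/451 locus opposite a wild-type allele, on C57BL/6. This locus makes erythroid microRNAs, so GFP marks the red cell lineage. Endothelial pools (replicates 1 to 3, 25 cells each) carried VE-Cadherin, the vessel adhesion protein made by Cdh5, and no GFP. Erythroid pools (replicates 4 to 6, 25 cells each) carried GFP and no VE-Cadherin. Double positive pools (replicates 7 and 8, 24 cells each) carried both. No treatment was given, and the labels do not say which pools share an embryo, so all p-values measure the spread between pools, which may be technical.

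Vessel identity is set early, in part before blood flow is established. In arteries the membrane ligand ephrin-B2 (Efnb2) and the gap junction connexins of Gja4 and Gja5 are made. In veins the nuclear receptor COUP-TFII (Nr2f2) holds back arterial Notch signalling, and the receptor tyrosine kinase EphB4 (Ephb4), which binds ephrin-B2, is made. The apelin receptor (Aplnr) is a venous and plexus receptor whose ligand apelin (Apln) is known from sprouting tip cells. Prox1 is the transcription factor that starts lymphatic fate, downstream of Nr2f2. The chemokine of Cxcl12 and its receptor Cxcr4 guide vessel assembly and arterial patterning, and blood progenitors also use them.

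The proximal promoters of 4 genes are shown, chosen after their values in the double positive pools were seen. Nr2f2 and Apln had the highest log2 differences of the set from the endothelial pools relative to endothelial markers. Both (2.61 and 2.47) lay below the median of 2.76 over all tested genes. Gja4 and Gja5 were lower in CPM, as were Cxcl12, Aplnr and Ephb4. Relative to endothelial markers Gja4 and Gja5 did not pass the test. Each run is the 250 bases before the RefSeq start (GRCm38.p6), written 5′ to 3′ along the gene. The windows are chr7:70366747-70366996, minus strand, for Nr2f2, chrX:48034854-48035103, minus strand, for Apln, chr4:127314040-127314289, minus strand, for Gja4 and chr3:97032152-97032401, plus strand, for Gja5. Capitals mark AGGAAG on either strand, a core motif of the ETS factors that act in endothelium.
Nr2f2: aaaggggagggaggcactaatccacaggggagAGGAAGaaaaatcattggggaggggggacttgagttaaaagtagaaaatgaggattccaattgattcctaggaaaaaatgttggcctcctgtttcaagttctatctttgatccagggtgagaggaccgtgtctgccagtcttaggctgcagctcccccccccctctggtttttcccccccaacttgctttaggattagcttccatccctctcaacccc
Apln: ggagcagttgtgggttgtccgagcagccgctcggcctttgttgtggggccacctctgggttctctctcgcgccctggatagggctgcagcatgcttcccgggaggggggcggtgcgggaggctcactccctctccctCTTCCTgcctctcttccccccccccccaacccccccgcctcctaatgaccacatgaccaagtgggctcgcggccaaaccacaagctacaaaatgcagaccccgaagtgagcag
Gja4: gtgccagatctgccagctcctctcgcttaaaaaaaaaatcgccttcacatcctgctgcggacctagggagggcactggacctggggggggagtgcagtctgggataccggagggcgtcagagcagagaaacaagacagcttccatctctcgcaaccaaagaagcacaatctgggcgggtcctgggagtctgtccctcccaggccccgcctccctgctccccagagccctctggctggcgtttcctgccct
Gja5: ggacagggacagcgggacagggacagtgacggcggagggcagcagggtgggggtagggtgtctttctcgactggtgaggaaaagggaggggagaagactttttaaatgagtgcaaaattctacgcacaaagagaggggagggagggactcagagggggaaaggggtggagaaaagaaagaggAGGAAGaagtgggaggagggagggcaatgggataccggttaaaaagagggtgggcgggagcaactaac

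Of the 10 genes, 9 had a RefSeq promoter (10 windows, with 2 for Prox1). AGGAAG was found in the windows of Nr2f2, Apln and Gja5, 3 of 9 genes, and in 29.5% of all 32851 promoter windows of that length. A further 5 motifs were searched on both strands. The RBPJ-type TGGGAA lay in the windows of Cxcl12 and Prox1, and 21.6% of all windows hold it. The KLF-type CCACCC lay in those of Cxcl12, Gja5 and Prox1, against 28.1% of all windows. No window of these genes held the ETS-type CGGAAG, which differs from AGGAAG in its first letter and is in 13.6% of all windows. None held the SOX-type AACAAT either, which 9.42% of all windows hold. None held the GATA-type AGATAA, which 9.99% hold. The Gja4 window held none of the 6 motifs although that gene had the highest level of the set per kilobase. These matches describe letters, not bound sites.

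Total counts ran from 3723128 to 7618444 per library. The sort was checked on Cdh5, which stood at 233, 172 and 220 CPM (counts per 1000000, after scaling by edgeR's trimmed mean, TMM) in endothelial replicates 1, 2 and 3, at 0 in all erythroid libraries, and at 45.8 and 56.0 CPM in double positive replicates 7 and 8. All 12 endothelial markers listed were detected in each endothelial and double positive library, with sums of 3246 to 4878 CPM and of 550 and 747 CPM. In each erythroid library 11 of these 12 were at 0. Markers of other cells differed between pools too. The 10 erythroid markers summed to 78820 and 137600 CPM in double positive replicates 7 and 8 and to 15.3 to 24.7 CPM in the endothelial libraries. The sum of 12 macrophage markers was 1060, 3299 and 1058 CPM in endothelial replicates 1, 2 and 3, and 25.4 and 96.9 CPM in replicates 7 and 8, where 9 and 0 of the 12 were at 0. The 12 markers of visceral endoderm, the absorptive epithelium of the yolk sac, summed to 90370 and 90430 CPM in the double positive libraries against 30.1 to 45.9 CPM in the endothelial libraries. The 12 mesenchyme markers summed to 385 and 340 CPM against 10.1 to 14.2 CPM. The cell that held a given transcript is not known from a pool, and fewer cells of a type cannot be told apart from less RNA per cell.

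In endothelial cells, arterial and venous genes were both present. Compared per kilobase of the principal transcript, Gja4 stood highest at 79.3 ± 37.3 CPM per kilobase (SD, n = 3). Next came Aplnr at 64.3 ± 12.8, then Gja5 at 33.5 ± 14.2 and Cxcl12 at 20.4 ± 21.1 CPM per kilobase. Efnb2 and Ephb4, ligand and receptor of one pair, were level at 10.9 ± 4.58 and 10.7 ± 2.00 CPM per kilobase. Nr2f2 reached 5.89 ± 3.87, Apln 3.71 ± 0.952 and Cxcr4 1.54 ± 0.695 CPM per kilobase, and Prox1 was at 0.0823 ± 0.143. The library ranges of neighbours in this order overlapped for Gja4 and Aplnr, Gja5 and Cxcl12, Cxcl12 and Efnb2, Efnb2 and Ephb4, Ephb4 and Nr2f2, and Nr2f2 and Apln. They did not overlap for Aplnr and Gja5, for Apln and Cxcr4, or for Cxcr4 and Prox1. With the length of all annotated exons in place of the principal transcript, Ephb4 moved ahead of Cxcl12 and Efnb2, and Apln ahead of Nr2f2.

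**Figure D1:**
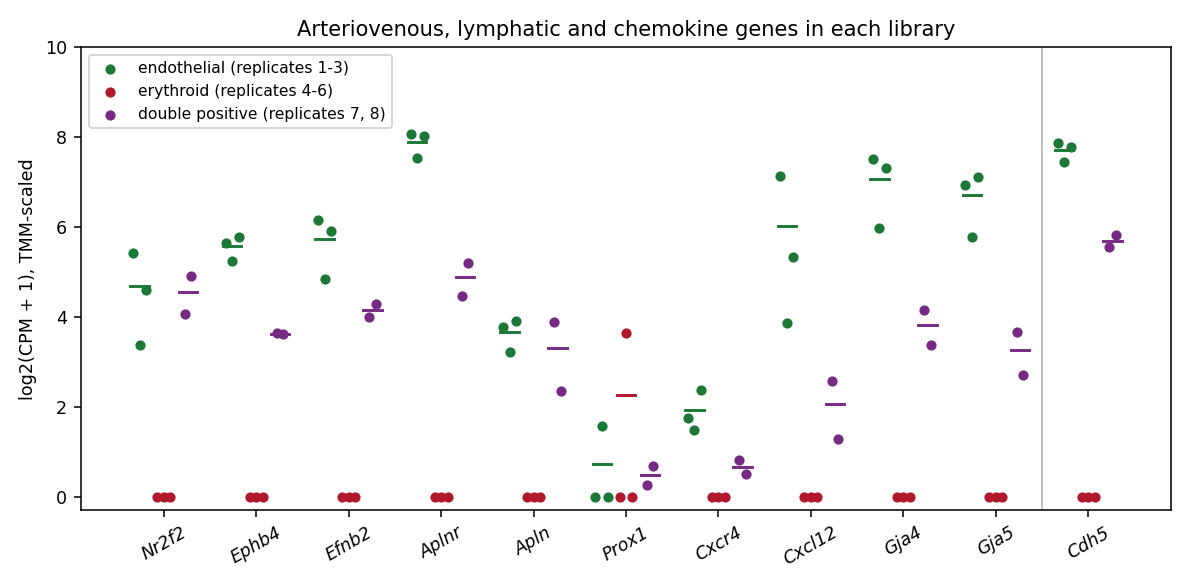
Level of each of the 10 genes and of Cdh5 in all 8 libraries, as log2(CPM + 1) after TMM scaling. Points are libraries (green endothelial, red erythroid, purple double positive) and bars the group mean of CPM. All genes but Prox1 sit at 0 in the 3 erythroid libraries, and the purple points of Nr2f2 and Apln lie within or across the green range.

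The venous genes were read first. Nr2f2 (ENSMUSG00000030551.14, chromosome 7, 70351944 to 70366735, minus strand, GRCm38) stood at 42.0, 9.44 and 23.2 CPM in endothelial replicates 1, 2 and 3 and at 15.7 and 29.1 CPM in double positive replicates 7 and 8. Both double positive libraries lay inside the endothelial range. Ephb4 (ENSMUSG00000029710.15, chromosome 5, 137350109 to 137378669, plus strand) stood at 49.0, 36.8 and 53.6 CPM in the endothelial and at 11.45 and 11.19 CPM in the double positive libraries, with a gap between the groups. Aplnr (ENSMUSG00000044338.9, chromosome 2, 85136225 to 85139923, plus strand) was the most abundant of the set in CPM, at 269, 183 and 261 in the endothelial and 21.2 and 35.6 in the double positive libraries. Its ligand gene Apln (ENSMUSG00000037010.7, chromosome X, 48025146 to 48034853, minus strand) was far lower, at 12.7, 8.30 and 14.0 CPM, and its double positive libraries split to 13.8 and 4.07 CPM, 1 inside and 1 below the endothelial range.

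Among the arterial genes, Efnb2 (ENSMUSG00000001300.16, chromosome 8, 8617434 to 8661242, minus strand) stood at 69.8, 27.7 and 59.2 CPM in endothelial replicates 1, 2 and 3 and at 14.9 and 18.5 CPM in double positive replicates 7 and 8. Gja4 (ENSMUSG00000050234.7, chromosome 4, 127311421 to 127314039, minus strand) stood at 181, 62.3 and 158 CPM in the same endothelial and at 16.8 and 9.36 CPM in the double positive libraries. Gja5 (ENSMUSG00000057123.14, chromosome 3, 96904693 to 97077416, plus strand) followed it at 122, 54.0 and 137 CPM and at 11.7 and 5.50 CPM. For these 3 genes the lowest endothelial library was replicate 2, and no double positive library reached it. Exons of Gja5 overlap those of Gpr89 on the other strand, and the strand setting of the counting is not given in the sources used here. Gpr89 had 69 to 157 counts in the erythroid libraries, where Gja5 had 0. The antisense neighbours of Nr2f2 and Ephb4, B130024G19Rik and Zan, had 3 counts and 1 count in all, each in 1 double positive library. Exons of Prox1 overlap those of Prox1os on the other strand. The count table has no row named Prox1os, so that overlap could not be checked in this way.

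The chemokine pair was uneven. Cxcl12 (ENSMUSG00000061353.11, chromosome 6, 117168535 to 117181367, plus strand) stood at 139, 13.5 and 39.5 CPM in endothelial replicates 1, 2 and 3 and at 4.96 and 1.43 CPM in replicates 7 and 8. Its receptor gene Cxcr4 (ENSMUSG00000045382.6, chromosome 1, 128588199 to 128592293, minus strand) was near the limit of counting, with 18, 11 and 26 counts (2.38, 1.79 and 4.195 CPM) in the endothelial and 4 and 2 counts in the double positive libraries. Per kilobase of the principal transcript, ligand transcripts exceeded receptor transcripts in every endothelial and double positive library. In double positive replicate 8 this rested on 7 against 2 counts. With the length of all annotated exons (8176 bases for Cxcl12 and 1808 for Cxcr4) the order turned in that library. The lymphatic regulator Prox1 (ENSMUSG00000010175.13, chromosome 1, 190118035 to 190170714, minus strand) was found in 1 of 3 endothelial and 1 of 3 erythroid libraries, at 12 counts in endothelial replicate 2 (1.95 CPM) and 36 counts in erythroid replicate 5 (11.4 CPM), with 0 in the other 4 of these libraries. Both double positive libraries held it, at 1 and 3 counts in replicates 7 and 8. No Prox1 comparison passed the test.

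Transcripts of the other 9 genes were not detected in the erythroid pools. Each of the 9 had 0 counts in all 3 erythroid libraries, where 3 counts would be 0.698 to 0.977 CPM. These 9 therefore passed the filter on low counts through the other libraries alone. All 9 were lower than in the endothelial libraries by edgeR's quasi-likelihood test, with no overlap of libraries, against a background of 26.6% of the 12136 tested genes called lower and 32.1% lower without overlap. The bound set by 3 counts over the group was at least 834-fold lower for Aplnr (adjusted p = 1.05e-05), at least 468-fold for Gja4 and at least 366-fold for Gja5. It was at least 224-fold for Cxcl12, at least 183-fold for Efnb2, at least 163-fold for Ephb4, at least 87.3-fold for Nr2f2 and at least 40.9-fold for Apln. For Cxcr4 the low count allowed only a bound of at least 9.78-fold (adjusted p = 0.0135), and its call was lost without double positive replicate 7 (adjusted p = 0.0741) or 8 (adjusted p = 0.0704). With genes at 0 set to their bound, the median log2 difference of the 10 genes was −7.43, against −0.36 over all tested genes.

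Between the 3 endothelial libraries, replicate 2 was the lowest for 9 of the 10 genes, all but Prox1, whereas 33.8% of 11465 tested genes detected in these libraries were lowest there. The spread was far from equal among the genes. Cxcl12 ranged 10.3-fold from the lowest to the highest library, with a coefficient of variation (CV) of 103%, and Nr2f2 ranged 4.45-fold with a CV of 65.6%. The median CV of tested genes within 2-fold of their mean level was 20.3% for Cxcl12 and 28.5% for Nr2f2. Gja4, Gja5 and Efnb2 had CVs of 47.0%, 42.3% and 42.0%, against 15.8%, 17.2% and 21.3% for genes of like level. Ephb4 and Apln, at 18.7% and 25.7%, lay below the medians of genes of like level (22.4% and 38.9%), and Aplnr, at 19.9%, above its own (13.5%). Counting error alone gives CVs of 2.51% (Aplnr) to 11.3% (Apln) for these 8 genes, and of 23.4% for Cxcr4. The CV of Cxcr4 was 45%, below the median of 79.3% for genes of like level.

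Replicate 2 also held 3299 CPM of macrophage markers, the highest sum of the 8 megakaryocyte markers (936 CPM against 503 and 568 CPM in replicates 1 and 3, with 4, 3 and 5 of the 8 at 0) and the least endothelial marker RNA, 3246 CPM against 4878 and 4648 CPM. The genes were therefore also read per 1000 counts of the 12 endothelial markers, none of which belongs to the set. On that scale Aplnr was almost level, at 55.1, 56.5 and 56.2 in replicates 1, 2 and 3, and Ephb4 stood at 10.04, 11.33 and 11.53 and Apln at 2.60, 2.56 and 3.02. The spread of the other genes narrowed but stayed wider. The CV went from 47.0% to 31.7% for Gja4, from 42.0% to 25.3% for Efnb2 and from 42.3% to 27.4% for Gja5. It went from 65.6% to 52.4% for Nr2f2 and from 103% to 94.5% for Cxcl12. Nr2f2 was at 8.61, 2.908 and 4.999 per 1000, Efnb2 at 14.3, 8.52 and 12.7, and Gja4 at 37.1, 19.2 and 33.9. Gja5 was at 25.0, 16.6 and 29.4 and Cxcl12 at 28.4, 4.16 and 8.51 per 1000. These 5 genes and Apln, 6 of 10, were still lowest in replicate 2, against 15.8% of the tested genes. The arterial genes and the venous Nr2f2 sat low in the same library, and the receptor genes Ephb4 and Aplnr did not once scaled. With 3 libraries and no label that sets replicate 2 apart, this is a description without a test.

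**Figure D2:**
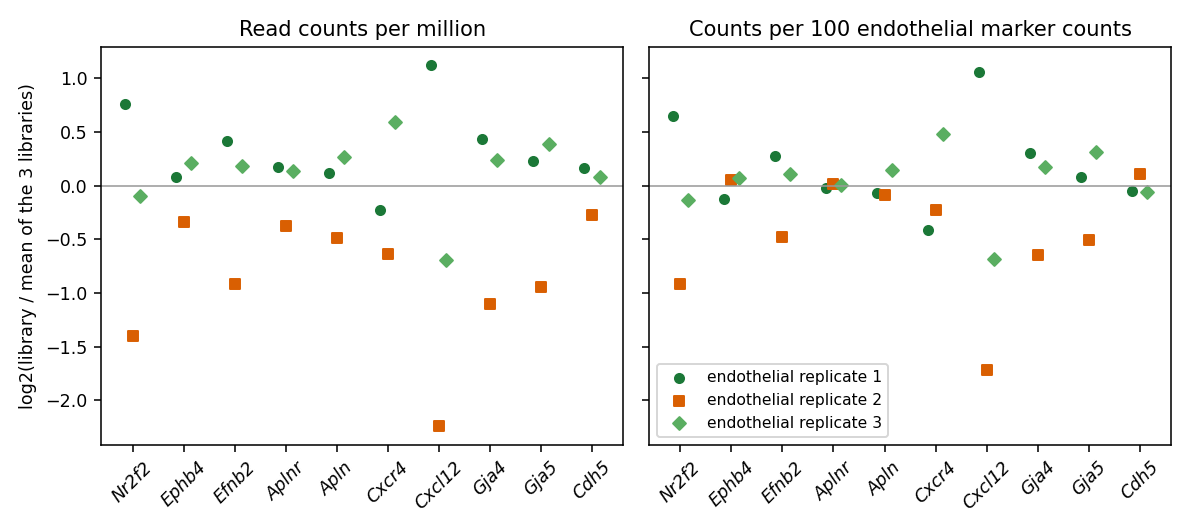
Each gene in the 3 endothelial libraries as log2 of the library over the mean of the 3, from CPM (left) and from counts per 100 counts of 12 endothelial markers (right). Prox1, with counts in 1 of these libraries, is not drawn. Replicate 2 (squares) is lowest for every gene drawn on the left, and after marker scaling Ephb4, Aplnr, Apln and Cdh5 close up while Nr2f2, Efnb2, Cxcl12, Gja4 and Gja5 stay apart.

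Of 14 tested arterial genes from a list beside the set, 12 were lowest in replicate 2 in CPM and 9 per endothelial marker. Hey1, a Notch target gene, stood at 22.7, 0 and 40.8 CPM in replicates 1, 2 and 3. Dll4, the arterial Notch ligand gene, stood at 40.0, 11.7 and 81.8 CPM, and the transcription factor gene Mecom at 35.2, 4.88 and 36.8 CPM. The exceptions in CPM were Sox17 and Acvrl1. Per 1000 marker counts, Nrp1 (42.4, 60.8 and 47.6) and Acvrl1 (20.19, 33.3 and 20.2) were highest in replicate 2. Of 6 venous genes outside the marker list, 5 were lowest in replicate 2 in CPM and 3 per marker, Nrp2, Vwf and Vcam1, with Vcam1 at 12.3, 0 and 16.6 CPM. Emcn, a marker gene of veins and capillaries and itself in the endothelial marker list, stood at 512, 119 and 323 CPM. The other lists had fewer genes lowest in that library. These were 2 of 6 Eph and ephrin genes in CPM and 0 per marker, and 1 of 2 connexin genes and 0. They were also 2 of 6 lymphatic genes on both scales, and 3 of 8 chemokine and apelin genes in CPM and 2 per marker. Of all tested genes detected in the endothelial libraries, 33.8% were lowest there in CPM and 15.8% per marker.

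Counts of all 10 genes were found in the double positive libraries, although Prox1 had only 1 and 3 and Cxcr4 only 4 and 2 in replicates 7 and 8. Of the 10 genes, 5 were lower than in the endothelial libraries and none higher, where 6.92% of tested genes were called lower and 14.6% higher. The double positive libraries lay below all endothelial libraries for 7 of 10, against 24.6% of tested genes. Cxcl12 was 20.01-fold lower (log2 difference −4.31, SE 1.18, adjusted p = 0.0434), Gja5 12.2-fold (−3.60, SE 0.59, adjusted p = 0.00715) and Gja4 10.2-fold (−3.35, SE 0.58, adjusted p = 0.00855). Aplnr was 8.37-fold lower (−3.07, SE 0.34, adjusted p = 0.0014) and Ephb4 4.10-fold lower (−2.03, SE 0.44, adjusted p = 0.0196). Cdh5 itself was 4.09-fold lower. The median log2 difference of the 10 genes was −2.12, against 0.06 over all tested genes.

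The other 5 genes did not pass. Efnb2 had a log2 difference of −1.64 (SE 0.52, adjusted p = 0.0676) without overlap of libraries, and passed with DESeq2 (adjusted p = 0.0143) and without endothelial replicate 2 (adjusted p = 0.0352). Cxcr4 had −2.20 (SE 1.30, adjusted p = 0.297). Nr2f2 had −0.15 (SE 0.72, adjusted p = 0.915), and its sign turned without endothelial replicate 1 (0.44) or double positive replicate 7 (0.23). Apln had −0.39 (SE 0.82, adjusted p = 0.803), and its sign turned without double positive replicate 8 (0.23). The count of genes called was 3 without endothelial replicate 1, endothelial replicate 3 or double positive replicate 7, and 1, Aplnr, without double positive replicate 8. The calls for Ephb4 and Cxcl12 ended in each of these 4 cases, those for Gja4 and Gja5 only without replicate 8 (adjusted p = 0.0651 and 0.0516), and that for Cxcl12 also with limma-voom (adjusted p = 0.185).

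Since endothelial marker RNA as a whole was lower in the double positive pools, the genes were compared again after scaling both groups to the summed counts of the 12 markers. This asks how much of each transcript there was per endothelial transcript, and does not assign it to a cell. Nr2f2 stood at 8.61, 2.908 and 4.999 per 1000 marker counts in the endothelial and at 28.5 and 39.0 in the double positive libraries (log2 difference 2.61, SE 0.54, adjusted p = 0.00133). Apln stood at 2.60, 2.56 and 3.02 against 25.0 and 5.45 per 1000 (2.47, SE 0.70, adjusted p = 0.00825), and Efnb2 at 14.3, 8.52 and 12.7 against 27.1 and 24.8 per 1000 (1.13, SE 0.46, adjusted p = 0.0428). All 3 were above every endothelial library. On this scale 74.3% of tested genes were called higher and 85.2% lay above all endothelial libraries, so 3 of 10 called was fewer than over all tested genes. The median log2 difference over all tested genes was 2.76, against 0.63 for the 10 genes. Nr2f2, Apln and Efnb2 each lay below that median over all tested genes. The libraries that gained on this scale also held 90370 and 90430 CPM of visceral endoderm and 385 and 340 CPM of mesenchyme markers, whose part in the values of Nr2f2, Apln and Efnb2 was not tested.

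The remaining genes did not pass on that scale, where 0.651% of tested genes were called lower and 1.99% lay below all endothelial libraries. Ephb4 had a log2 difference of 0.71 (SE 0.48, adjusted p = 0.195) and Cxcr4 of 0.56 (SE 1.47, adjusted p = 0.741). Aplnr had −0.37 (SE 0.35, adjusted p = 0.346), with both double positive libraries below the 3 endothelial ones. Gja4, Gja5 and Cxcl12 had −0.49 (SE 0.51), −0.74 (SE 0.55) and −1.35 (SE 0.96), with overlapping libraries and adjusted p = 0.399, 0.239 and 0.225. The 12 markers themselves ran from −0.84 (Eng) to 0.68 (Cdh5). The call for Apln was lost without double positive replicate 7 (0.998, adjusted p = 0.387), and that for Efnb2 without any 1 of the 5 libraries (adjusted p = 0.0539 to 0.139) and with Cdh5 as the only scale (0.43, adjusted p = 0.363). Nr2f2 passed in each of these cases. Cxcl12 passed as lower without endothelial replicate 3 (−1.60, adjusted p = 0.0467). With Cdh5 alone Aplnr (−1.05, adjusted p = 0.0103) and Gja5 (−1.47, adjusted p = 0.0334) passed as lower.

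**Figure D3:**
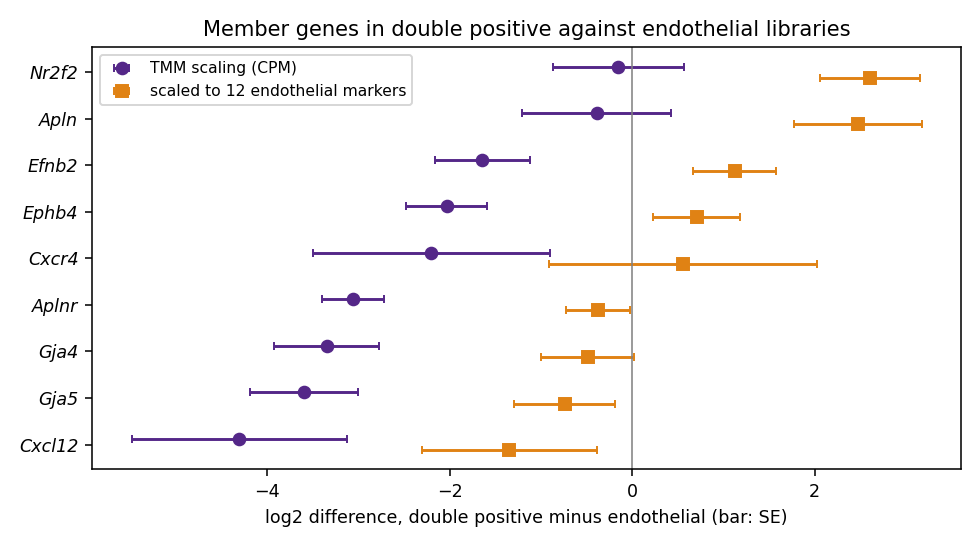
Log2 difference between double positive (2) and endothelial (3) libraries with its SE, for 9 genes, under TMM scaling (circles) and scaled to 12 endothelial markers (squares). The genes run from Nr2f2, at −0.15 and 2.61, to Cxcl12, at −4.31 and −1.35. Prox1 is not drawn.

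Ratios of 2 genes inside one library need no scaling between libraries, and 6 were read, as counts per kilobase of the principal transcript. Such ratios can still differ with the cell content of the pools, which was not tested. Per endothelial marker, the log2 differences of Nr2f2 (2.61) and Apln (2.47) lay below the median of all tested genes (2.76). The share of other gene pairs whose ratios fall without overlap was not computed, so no arterial or venous shift is read from them. Efnb2 to Ephb4, the arterial ligand over the venous receptor, was 1.29, 0.681 and 1.001 in endothelial replicates 1, 2 and 3 and 1.177 and 1.498 in replicates 7 and 8. The groups overlapped. Gja4 to Gja5 stayed within 2.13 to 2.74 in the endothelial and was 2.66 and 3.14 in the double positive libraries, again with overlap. Efnb2 to Nr2f2 was 1.47, 2.58 and 2.25 in the endothelial and 0.838 and 0.561 in the double positive libraries, and Gja4 to Nr2f2 was 10.8, 16.6 and 17.0 against 2.69 and 0.806. In both cases the double positive libraries lay below all endothelial libraries. Aplnr to Apln, receptor over ligand, was 18.1, 18.8 and 15.8 against 1.31 and 7.45, also without overlap.

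With 3 against 2 libraries an exact two-sided permutation test cannot go below p = 0.1. The exact test gave p = 0.1 for these 3 ratios (adjusted p = 0.2 over 6 ratios), p = 0.4 for Efnb2 to Ephb4, and p = 0.3 for Gja4 to Gja5 and for Cxcl12 to Cxcr4. None can therefore pass. Cxcl12 to Cxcr4 was 33.7, 4.35 and 5.43 in the endothelial and 3.75 and 2.02 in the double positive libraries, and rested on 2 to 26 Cxcr4 counts.

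**Figure D4:**
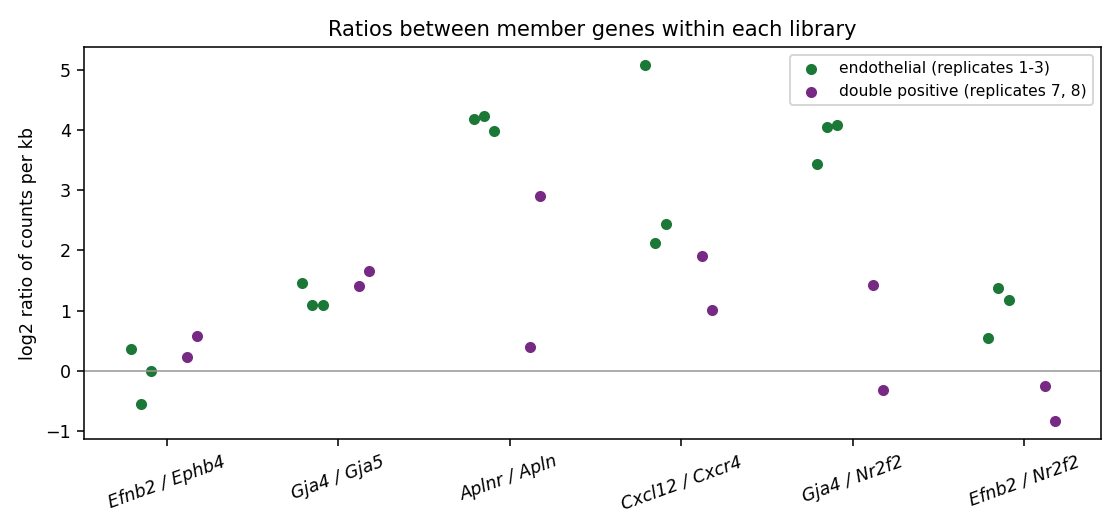
Ratios between pairs of the genes within each library, as log2 of the ratio of counts per kilobase, in 3 endothelial (green) and 2 double positive (purple) libraries. Purple points lie below all green points for Aplnr to Apln, Cxcl12 to Cxcr4, Gja4 to Nr2f2 and Efnb2 to Nr2f2, and overlap them for Gja4 to Gja5 and Efnb2 to Ephb4.

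Against the erythroid libraries, 8 of the 10 genes were higher in the double positive libraries and none lower, where 31.5% of tested genes were called higher. For 9 of 10 there was no overlap of libraries, against 47.5% of tested genes. Aplnr was at least 99.6-fold higher (adjusted p = 8.97e-05), Nr2f2 at least 78.5-fold and Efnb2 at least 58.6-fold. Gja4 was at least 45.9-fold, Ephb4 at least 39.7-fold, Apln at least 31.3-fold, Gja5 at least 30.1-fold and Cxcl12 at least 11.2-fold higher. The Cxcl12 call (adjusted p = 0.0446) was lost in 6 of the 8 fits that left out 1 library and with limma-voom (adjusted p = 0.215). Cxcr4, with 6 double positive counts in all, did not pass (adjusted p = 0.0642), and passed with limma-voom (adjusted p = 0.0328) and with library size alone (adjusted p = 0.0293). The double positive libraries enter both this comparison and the one with endothelial libraries.

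Partner genes were taken from lists written beside the set. Of all tested genes, 26.6% were called lower and 14.4% higher in erythroid and 6.92% lower and 14.6% higher in double positive libraries, each relative to endothelial ones. Of 14 tested arterial partners, 12 were lower in erythroid libraries relative to endothelial ones and 6 in double positive libraries, where the median log2 difference was −2.59. The latter count fell without replicate 7 or without replicate 8, which leaves 1 double positive library. Nrp1, a co-receptor gene of arterial endothelium, was 6.33-fold lower in double positive libraries (32.9 ± 2.05 against 208 ± 11.98 CPM, SD, n = 2 and 3, adjusted p = 0.000378), Acvrl1, a BMP receptor gene, 12.6-fold and Sox17 8.81-fold. Of 9 tested venous partners, 7 were lower and 1 higher in erythroid, and 4 lower and 2 higher in double positive libraries. Tek, the angiopoietin receptor gene, was 8.53-fold lower and the receptor gene Flt4 4.68-fold lower in the double positive libraries, while Ctsh, a lysosomal protease gene, was 10.96-fold higher. Tek is itself in the endothelial marker list. The sum of that list was 3246 to 4878 CPM in the endothelial and 550 and 747 CPM in the double positive libraries. Relative to these markers Tek had a log2 difference of −0.38 (edgeR adjusted p = 0.297). Values of Nrp1 and Flt4 on that scale are not given here. Of 20 other Eph receptor and ephrin genes, 6 were tested, and all 6 were lower in erythroid libraries. That direction was largely fixed by the filter. All but Efnb1 (1 count) had no erythroid counts and so passed it through the other libraries. The tested arterial partners other than Notch4 and Vegfa had no erythroid counts either. Epha8, with 4, 1 and 19 counts in erythroid replicates 4, 5 and 6, did not pass the filter. Only the ligand gene Efna1 among the 6 tested was called lower in double positive libraries, 4.18-fold, at 57.8 ± 3.38 against 241 ± 113 CPM (adjusted p = 0.0142). The call for Efna1 ended without replicate 7 or without replicate 8.

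The lymphatic partners did not move as one. Lyve1, a hyaluronan receptor gene of lymphatic and yolk sac endothelium, fell 14.3-fold from endothelial to double positive libraries (69.9 ± 4.78 against 998 ± 72.6 CPM, adjusted p = 2.98e-05), and Pdpn, the podoplanin gene, was at least 930-fold higher (adjusted p = 0.000441), at 0 in the endothelial libraries. In all, 3 of 8 tested lymphatic partners were lower and 2 higher, against 6.92% and 14.6% of all tested genes. Fewer were called lower without replicate 7, which leaves 1 double positive library. Among 8 tested chemokine and apelin partners 1 was called higher and 0 lower by edgeR. The gene called was Mif, a cytokine gene whose product binds Cxcr4, 3.48-fold higher (adjusted p = 0.000704). The count called lower was 5 with library size alone, 2 with DESeq2 or with only these populations fitted, and 1 with limma-voom, RLE factors, globin genes removed, a minimum count of 50, or any 1 erythroid library left out. Library size alone moved the median log2 difference of all tested genes by −0.63 in this comparison. The shares of all tested genes called lower under these settings are not given here, so these counts cannot be set against them.

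As a description over the 8 libraries, which share population differences of depth and content, the genes most alike in log2(CPM + 1) were read by Pearson's r. Those nearest Ephb4 were the endothelial genes Ptprb and Pecam1 (both 0.9998), and those nearest Aplnr Dpysl3 (0.9998) and Arap3 (0.9995). Gja4 and Gja5 shared Plxnc1 (0.9988 and 0.9991), with Prrg3 (0.9986) and Slc37a1 (0.9991) beside it. Efnb2 was nearest Fam171a1 (0.9997) and Plagl1 (0.9993). Nr2f2 was nearest Traf3ip2 (0.9967) and Fam135a (0.9965), and Apln nearest Loxl2 (0.9979) and Slc8b1 (0.995). For Cxcl12 they were Rerg (0.9906) and Nmb (0.9897), for Cxcr4 Cd1d1 (0.9969) and Crmp1 (0.9941), and for Prox1 5430431A17Rik (0.9737) and Ruvbl2 (0.9646). The values for Prox1 rest mainly on 36 counts in erythroid replicate 5 and 12 in endothelial replicate 2. All 10 genes but Prox1 are at 0 in the 3 erythroid libraries.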

How the data were processed

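The authors deposited 1 table of unscaled read counts, with a row for each gene symbol, for 8 libraries made from polyadenylated RNA by Smart-seq2 with 14 cycles of PCR, per the labels. The submitters' processing notes name FastQC, HTSeq and mm10. No source used here gives the aligner, annotation, strand setting or versions. Columns were matched to samples by title.

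Genes were kept by edgeR's filterByExpr (minimum count 10, 12136 genes), scaled by TMM, and tested in 1 quasi-likelihood fit over all 8 libraries (edgeR 4.0.16, R 4.3.3). Adjusted p is Benjamini-Hochberg over all genes tested, two-sided, with a threshold of 0.05, and SE is the log2 difference over the root of F. A group at 0 was given a floor of 3 counts over the group, or per library where so stated, which covers counting error only, since reads had no molecular identifiers. The fit was also run on simulated data, in which no gene was set to 0 in a group. The outcome of that run is not given here and is not used for any call above.

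The genes, lists and tests were chosen with earlier results of these data known. Named genes were the 10 of the set, Cdh5, up to 3 genes per partner list and comparison with the smallest adjusted p, and the 2 genes most alike to each; Hey1, Dll4, Mecom, Vcam1, Emcn, Ackr1, Reln and Ackr3 were named after their values were seen. The marker scaling was added after seeing the data (edgeR, endothelial and double positive libraries, the same genes). Alternatives were DESeq2 1.42.0, limma-voom (limma 3.58.1), other scalings and filters, and leaving out each library. Positions and lengths are GENCODE M21 (GRCm38), promoters RefSeq (GRCm38.p6). Figures used matplotlib 3.10.9 in python 3.11.15.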

Additional observations from a re-analysis of the deposited data

How the results depend on the processing

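Of the 10 genes, 9 were called lower in erythroid than in endothelial libraries, with 8 to 9 under every alternative run, and 8 were called higher in double positive than in erythroid libraries, with 7 to 9. Against endothelial libraries 5 were called lower in double positive libraries, and 4 to 6 under other tests, scalings and filters. Fewer were called without endothelial replicate 1, endothelial replicate 3, double positive replicate 7 or double positive replicate 8. The marker scaling called 3, and fewer when some single libraries were left out. The shares of all tested genes called under these alternatives are not given here, so the counts cannot be set against them. Signs that turned were all of genes not called. Prox1 in double positive against endothelial libraries turned to 1.02 with limma-voom. In the same comparison Nr2f2 turned to 0.44 without endothelial replicate 1 and to 0.23 without replicate 7 (−0.68 without replicate 8), and Apln to 0.23 without replicate 8 (−1.51 without replicate 7). Under the marker scaling Cxcr4 turned to −0.15 with Cdh5 alone and to −0.25 without replicate 7 (1.10 without replicate 8), and Gja4 to 0.024 without replicate 8 (−1.26 without replicate 7). Apart from the libraries left out, the cause was not tested. Scaling by library size alone moved the median log2 difference of all tested genes by −1.54 in erythroid and −0.63 in double positive against endothelial libraries, and by 0.90 in double positive against erythroid libraries; RLE factors moved it by −0.18, −0.13 and 0.05. Library size alone called Efnb2 lower in double positive libraries (log2 difference −2.29, adjusted p = 0.0197). Cxcr4 and Prox1, with few counts, set the limit of depth. No paired analysis was possible because replicate numbers are not shared between populations.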

Other observations

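Some partner genes with vessel or lymphatic names were higher in erythroid than in endothelial libraries. Ackr1, the atypical chemokine receptor gene that also encodes the Duffy blood group antigen, had 0 counts in all 3 endothelial libraries and stood at 37.0, 71.0 and 18.6 CPM in erythroid replicates 4, 5 and 6, at least 280-fold higher (adjusted p = 0.000645, edgeR). In double positive replicates 7 and 8 it stood at 1.91 and 7.53 CPM. Reln, the reelin gene listed with lymphatic genes, was likewise at 0 in the endothelial libraries and at 87.3, 61.5 and 25.7 CPM in the erythroid libraries (at least 386-fold higher, adjusted p = 0.000151). Ackr3, a scavenging receptor gene for the Cxcl12 product, stood at 129, 222 and 113 CPM in the erythroid libraries, where Cxcr4 and Cxcl12 were at 0, and at 26.5, 2.60 and 31.0 CPM in endothelial replicates 1, 2 and 3 (7.72-fold higher in erythroid libraries, adjusted p = 0.00887). Scaling by library size alone ended this call for Ackr3 (log2 difference 1.40 in place of 2.94, adjusted p = 0.109).

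Connexin genes were divided between pools. Gja1 stood at 183 ± 33.5 CPM in endothelial (SD, n = 3), 0 in erythroid and 78.1 ± 35.7 CPM in double positive libraries (SD, n = 2). Gjb1 and Gjb2, connexin genes of epithelia, had 0 counts in every endothelial and erythroid library and stood at 46.6 ± 9.45 and 105 ± 4.04 CPM in the double positive libraries (at least 309-fold and 695-fold above endothelial libraries, adjusted p = 0.00285 and 0.000613). All 12 visceral endoderm markers were detected in the same libraries. The share of these transcripts held by such cells was not tested.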
